A study of Mus musculus with 15 samples.

Results

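Described here are 9 genes that together switch on mitochondrial genes in muscle. They are the 3 PGC-1 coactivators (Ppargc1a, Ppargc1b and Pprc1), the 3 oestrogen-related receptors (Esrra, Esrrb and Esrrg), the nuclear respiratory factor Nrf1, the DNA-binding subunit of GABP (Gabpa) and the mitochondrial transcription factor Tfam. They were taken by name, through the identifiers of the deposited table matched to GENCODE symbols, and the set was drawn up with earlier results of these data known. All 9 were found among the 50686 genes of the table. All 9 also passed the filter on low values, a mean of at least 10 normalized counts over the libraries, as did 13499 genes in all. A normalized count is a read count divided by a size factor of its library.

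The RNA came from quadriceps muscle of 15 C57BL/6 offspring at 10 months of age, with 3 libraries in each of 5 groups. MHE offspring had a mother that ate a 60% high-fat diet for 6 weeks from 8 weeks of age, was mated with a lean male of 14 weeks, and had a running wheel while pregnant. MHS offspring had a mother with the same diet and mating, but with a locked wheel. PHE offspring had a father with that diet for the same 6 weeks and a lean dam of 14 weeks with a running wheel in pregnancy. PHS offspring had such a father and a lean dam of 14 weeks with a locked wheel. NCS offspring, the controls, had chow-fed parents and a sedentary dam, with the same 6 weeks of diet from 8 weeks of age and a mate of 14 weeks. In all 5 groups the offspring themselves were fed chow and had no exercise from the day after birth. So diet and wheel were given to the parents, and the offspring were measured 10 months later. The labels give neither the sex of the offspring nor which of them shared a litter or dam, so each p-value reflects only how far these samples spread, which may be technical.

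PGC-1 coactivators do not bind DNA. They dock on transcription factors, among them the oestrogen-related receptors, NRF1 and GABP, and recruit the enzymes that open chromatin and start transcription of nuclear genes for respiration and fatty acid oxidation. TFAM, made from 1 of those target genes, enters mitochondria, where it starts transcription of the mitochondrial genome and packs it. In skeletal muscle Ppargc1a is known for its induction by contraction and for its higher level in slow, oxidative fibres.

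The libraries held 18457663 to 26981745 reads assigned to genes. Ckm, the muscle creatine kinase, stood at 14596 to 23058 CPM (reads scaled to library depth) and the fast myosin gene Myh4 at 77635 to 129284 CPM, so skeletal muscle markers were abundant in every library (158341 to 214988 CPM over 8 genes). Transcripts of 28 liver genes summed to 4435 CPM in MHS replicate 2, 545 in MHS replicate 3, 274 in PHS replicate 1 and 200 in NCS replicate 2, and to 15.5 to 41.9 CPM in the other 11 libraries. Genes with any read numbered 17581 in MHS replicate 3 and 17699 in NCS replicate 2, against 19062 to 20771 in the other 13. Marker sums spanned 149 to 277 CPM for fat cells (10 genes), 295 to 460.4 for endothelium (5), 112 to 327 for Schwann cells (6), 33.1 to 135 for red cells (5), 12.9 to 35.7 for macrophages (7) and 0.750 to 9.83 for heart muscle (5, of which 1 to 4 were at 0). Ucp1, the defining gene of brown fat, had 0 reads in all 15 libraries. The summed level of 10 slow fibre genes was 728 CPM in PHE replicate 1 and 1226 in NCS replicate 1, and 2194 to 5904 CPM elsewhere.

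The levels of the 9 genes can be set side by side only per length of exon. On that scale, normalized counts per kilobase of all annotated exons averaged over 15 libraries, Esrra stood far above the rest at 475. Tfam (153), Pprc1 (148) and Gabpa (109) followed, then Ppargc1a (87.9), Esrrg (63.5), Esrrb (44.7), Ppargc1b (39.9) and Nrf1 (29.0). The range of Esrra, 370 to 646 per kilobase, did not touch that of any other of the 9. Neighbours further down the order overlapped over the 15 libraries. The low place of Nrf1 depends on the length used, since its 20 annotated transcripts add up to long exons: over its longest transcript alone it stood at 73.7, against 89.7 for Ppargc1a and 73.3 for Esrrg on the same scale. Over the longest transcript Pprc1 (178) also stood above Tfam (163), and Esrra stood at 838. Within the coactivator family, Pprc1 made up 54.0% ± 9.03 of the summed level per kilobase (SD, n = 15 libraries), Ppargc1a 31.5% ± 7.52 and Ppargc1b 14.5% ± 3.60. Within the receptor family Esrra made up 81.4% ± 3.87, Esrrg 10.9% ± 2.44 and Esrrb 7.61% ± 1.77. So the best-known coactivator was not the one with the most transcript per length here, and 1 receptor supplied most of its family.

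**Figure D1:**
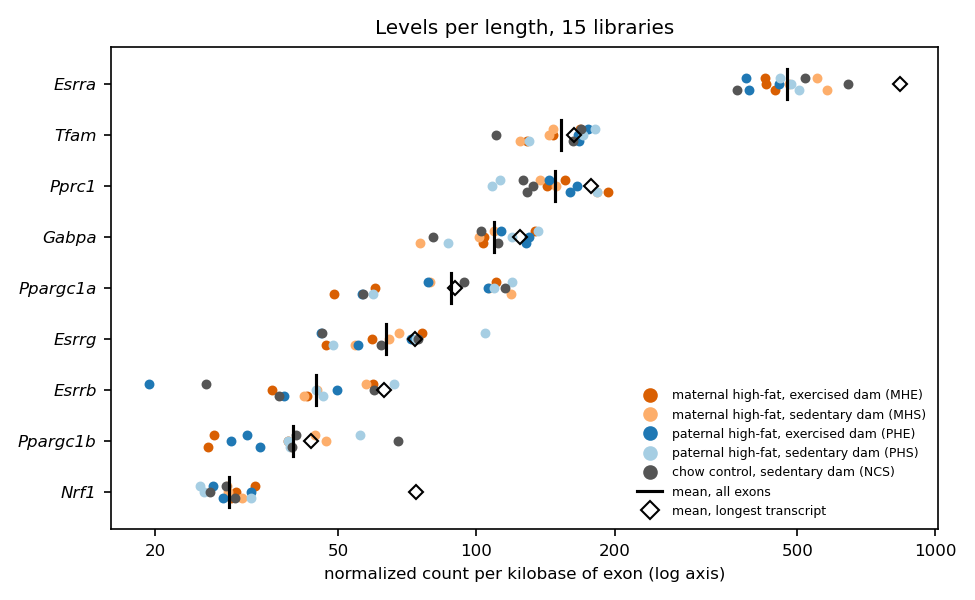
Level of each gene as normalized count per kilobase of exon (log axis), 1 point per library coloured by group, with the mean over all annotated exons as a bar and the mean over the longest transcript as an open diamond. Esrra lies apart at 475 on average, and Nrf1 is the gene that the choice of length moves most (29.0 against 73.7).

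The 9 genes also differed in how much they varied. Nrf1 was the steadiest, with a coefficient of variation of 8.49% over the 15 libraries and a highest value 1.32 times the lowest. Ppargc1a (29.8%), Esrrb (28.7%), Ppargc1b (27.3%) and Esrrg (24.7%) varied most. Tfam (14.0%), Esrra (16.0%), Pprc1 (17.2%) and Gabpa (17.2%) lay between. The widest span was that of Esrrb, whose highest library held 3.43 times the lowest.

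The first question was whether parental diet or the dam's exercise left a difference in any of these genes. None of the 9 passed an adjusted p of 0.05 in any of the 6 comparisons of 2 groups, by limma with Benjamini-Hochberg adjustment over 13499 genes. Nor did any other gene: limma called 0 genes (0%) in each comparison. At an unadjusted limma p under 0.05 stood 1288 genes (9.54%) for MHE against MHS, 508 (3.76%) for PHE against PHS, 1183 (8.76%) for MHE against NCS, 1850 (13.7%) for PHE against NCS, 546 (4.04%) for MHS against NCS and 387 (2.87%) for PHS against NCS. Ppargc1b was the 1 member among them in each of the first 4, and no member was among them in the remaining pair. edgeR and limma voom on the recovered reads called 0 genes too. DESeq2 called 60 (0.444%), 1 (0.00741%), 0 (0%), 65 (0.482%), 18 (0.133%) and 0 (0%) in the same order, none of them among the 9. Over any difference among the 5 groups, the limma F-test called 0 genes, with 906 (6.71%) at an unadjusted p under 0.05, Ppargc1b among them (0.0242 unadjusted, 0.715 adjusted by limma); edgeR and voom called 0 and DESeq2 186 (1.38%), none of the 9. For the difference between the arms in the effect of exercise, limma called 0 with 243 genes (1.8%) and no member at an unadjusted p under 0.05, and edgeR, voom and DESeq2 called 0. The lowest adjusted p that any of the 9 reached in any comparison under any setting tried was 0.113. All differences below are therefore described by their values, intervals and overlap.

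Ppargc1a (ENSMUSG00000029167.13, chromosome 5, 51454250 to 51567726, minus strand, GRCm38) encodes the coactivator that links contraction, cold and fasting to mitochondrial biogenesis. Its normalized counts were 729, 396 and 323 in the 3 MHE libraries, against 522, 703 and 783 in the 3 MHS libraries. In the paternal arm they were 516, 697 and 372 in PHE libraries, against 788, 719.9 and 392 in PHS libraries. The NCS libraries held 619.8, 759.6 and 374. Every group therefore overlapped every other. Sorted by value, 5 libraries of 4 groups lay at or under 396 and the other 10 at or above 516, a gap that did not follow the groups and that was noticed after the values were seen.

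Ppargc1a averaged 483 ± 216 in MHE and 669 ± 134 in MHS muscle (SD, n = 3 each). The log2 difference, on the scale of the normalized count plus 1 used throughout, was -0.54 ± 0.34 (SE), with a 95% interval of -1.27 to 0.19 (limma adjusted p = 0.554). It averaged 529 ± 163 in PHE and 633 ± 212 in PHS muscle, a log2 difference of -0.24 (limma adjusted p = 0.991). Against NCS muscle (584 ± 195) the log2 difference was -0.30 in MHE, -0.13 in PHE, 0.24 in MHS and 0.11 in PHS. So the mean was lower in the exercised than in the sedentary group of both arms with overlapping replicates and a 95% interval that includes 0 in each. The size rested on single libraries: the log2 difference between MHE and MHS ran from -0.88 without MHE replicate 1 to -0.30 without MHE replicate 3, and that between PHE and PHS from -0.56 without PHS replicate 3 to -0.013 without PHE replicate 3. Against NCS, the difference in MHE was -0.061 without MHE replicate 3. The 4 libraries with most liver transcripts, all from sedentary dams, held 703 to 788 counts of Ppargc1a. Without them the log2 difference between MHE and MHS was -0.20, and with the liver transcripts as a covariate it was -0.04. In bulk muscle fewer cells of a type and less RNA per cell cannot be told apart.

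In the RefSeq promoter windows used here (GRCm38.p6, the 250 bases before each start), Ppargc1a has a single entry, at its outermost annotated start. The 60 bases from -80 to -21 of that start are shown because they hold the only match of 11 motifs searched in the window, a partial site of the cAMP response element, through which CREB family factors act on many contraction-responsive genes (TGACG, which reads CGTCA on the strand shown, in capitals).
Ppargc1a chr5:51567746-51567805, minus strand: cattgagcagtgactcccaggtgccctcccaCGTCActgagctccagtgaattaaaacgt
The same 5 letters occur on either strand in 17.8% of 32851 promoter windows, so the match is common. A table of counts per gene does not tell which of the gene's starts was used.

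Ppargc1b (ENSMUSG00000033871.14, chromosome 18, 61298136 to 61400431, minus strand) encodes the second coactivator, which shares its partners and is known for its role in the basal mitochondrial content of muscle. It held 107, 155 and 104 normalized counts in MHE libraries, against 178, 188 and 158 in MHS libraries. It held 126, 117 and 135 in PHE libraries, against 223, 155 and 157 in PHS libraries. NCS libraries held 162, 269 and 158. Both exercised groups thus lay below their sedentary counterparts and below the controls with no overlap, while the 3 groups with sedentary dams overlapped one another. For MHE the gap was narrow, with 155.4 in MHE replicate 2 against 157.8 in MHS replicate 3 and 158.4 in NCS replicate 3. MHE replicate 2, at 155.4, stood beside PHS replicate 2, at 155.1, so over both arms together the exercised and sedentary libraries touched.

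The log2 difference of Ppargc1b was -0.54 ± 0.22 in MHE against MHS and -0.48 ± 0.22 in PHE against PHS (SE, n = 3 each). Against NCS it was -0.66 in MHE and -0.59 in PHE, and -0.41 and -0.35 without NCS replicate 2. In PHE against PHS it was -0.31 without PHS replicate 1. The unadjusted limma p-values were 0.028, 0.0457, 0.00884 and 0.0164 in that order, and the limma p-values adjusted over all genes were 0.516, 0.991, 0.566 and 0.307. None of the 4 passed the adjustment. Between the arms, MHE minus MHS less PHE minus PHS came to a log2 of -0.06, with an interval of -0.72 to 0.61. In MHS and PHS against NCS the log2 difference was -0.13 and -0.11, and both signs turned without NCS replicate 2. The depth behind these values was 92 to 266 reads per library.

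Esrra (ENSMUSG00000024955.13, chromosome 19, 6910977 to 6921813, minus strand) encodes ERR alpha, an orphan receptor that binds genes of oxidative phosphorylation and is itself induced by PGC-1. It held 1869, 1871 and 1959 normalized counts in MHE libraries, against 2420.2, 2108 and 2550.2 in MHS libraries. It held 1699, 1999 and 1721 in PHE libraries, against 2008, 2125 and 2210.0 in PHS libraries. NCS libraries were widely spread, with 2281, 2832 and 1622. All 6 libraries of exercised dams lay below all 6 of sedentary dams in the high-fat arms, the nearest being PHE replicate 2 at 1999 and PHS replicate 1 at 2008, and the controls were spread across both. The log2 difference was -0.31 ± 0.16 in MHE against MHS (limma adjusted p = 0.522) and -0.23 ± 0.16 in PHE against PHS (0.991). The difference between the arms was -0.08, with an interval of -0.55 to 0.39. Esrra shares exon sequence with Trmt112 on the opposite strand, and no source used here states whether the counting was stranded.

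For MHE against MHS, lower values with no overlap were found in 2 of the 9 genes (Ppargc1b and Esrra) and in 8.61% of all genes tested. For PHE against PHS the same 2 genes were found, beside 5.5% of all genes. For MHE against NCS 1 of the 9 (Ppargc1b) was lower with no overlap, beside 4.72%, and for PHE against NCS 1 of the 9 (Ppargc1b), beside 8.7%. Lower with no overlap in both arms at once were 139 of 13499 genes, or 1.03%, and 2 of the 9. Lower in all 6 exercised than in all 6 sedentary libraries of the high-fat arms were 50 genes, or 0.37%, with Esrra among them and Ppargc1b not. No member was higher with no overlap in MHE against MHS (8.56% of all genes), in PHE against PHS (5.11%) or in the pooled arms (0.548%), none was lower in MHS against NCS (3.58%), and all 9 overlapped in PHS against NCS (2.64% of genes higher, 3.05% lower). These counts were made after the values of Ppargc1b and Esrra had been seen and serve as a description.

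A comparison pooled over both arms, also added after those values were seen, gave Ppargc1b a log2 difference of -0.51 ± 0.16 between exercised and sedentary dams. Its limma p was 0.00527 unadjusted and 0.394 adjusted, and its means were 124 ± 19.4 and 176 ± 26.4 (SD, n = 6 each). Esrra gave -0.27 ± 0.11 (0.028 unadjusted, 0.415 adjusted by limma), with means of 1853 ± 122 and 2237 ± 207. Ppargc1a gave a log2 difference of -0.39 ± 0.24, with 0.508 after adjustment by limma. In this pooled comparison limma called 0 genes of 13499 (0%) with 1587 (11.8%) at an unadjusted p under 0.05, Ppargc1b and Esrra being the 2 members among them. edgeR and limma voom called 0, and DESeq2 called 32 (0.237%), none of the 9.

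The 4 libraries with most liver transcripts all had sedentary dams, while the other 5 libraries of sedentary dams lay at or below 26.0 CPM, within or below the range of the exercised groups. The liver list, of which 27 of 28 genes were tested, summed to 18.8 to 41.9 CPM in MHE and 26.3 to 32.8 CPM in PHE libraries. It summed to 19.7 to 4435 CPM in MHS, 15.5 to 274 CPM in PHS and 20.3 to 200.1 CPM in NCS libraries. Per library, 1 to 13 of the 28 genes were at 0 in MHE, 1 to 3 in PHE, 0 to 2 in MHS, 0 to 10 in PHS and 1 to 15 in NCS. Without the 4 libraries with most of them, Ppargc1b differed by -0.57 in MHE against MHS, where 1 MHS library is left, and by -0.31 in PHE against PHS. Esrra differed by -0.35 and -0.27 in the same fits. With the liver level as a covariate the differences were -0.26 and -0.47 for Ppargc1b, and -0.28 and -0.23 for Esrra. The sign of both genes in both arms was the same in each of the 30 alternatives tried, but many of these could not turn it. Leaving out a library of another group leaves the difference as it was. As values did not overlap within either arm, leaving out 1 library of the groups compared cannot turn the sign either.

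**Figure D2:**
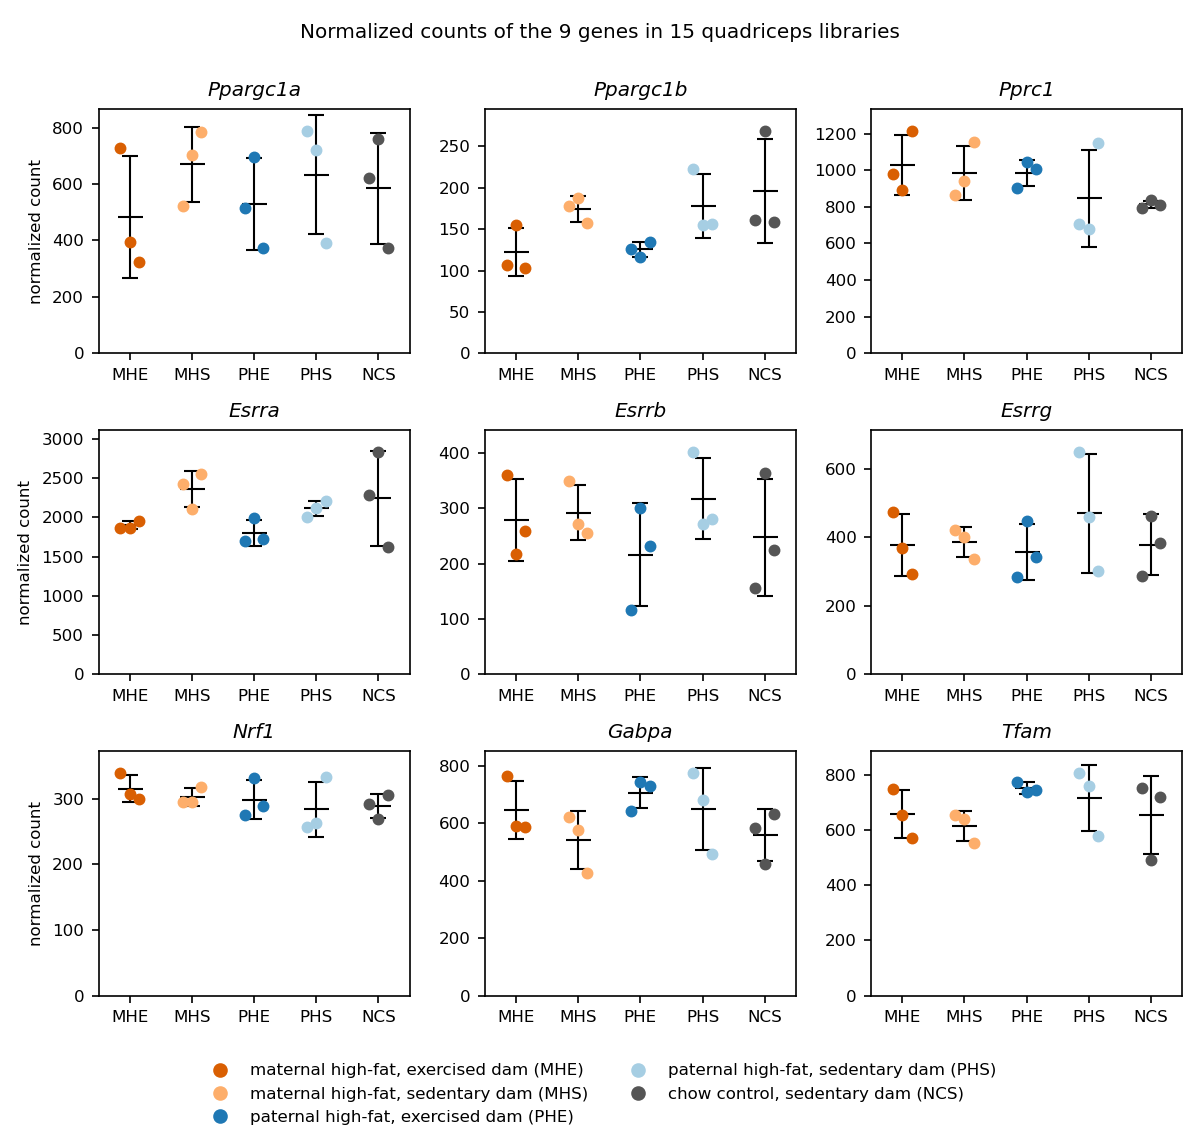
Normalized counts of the 9 genes (vertical axes start at 0) in the 15 libraries by group, with 1 point per library, the group mean as a bar and ± 1 SD as whiskers (n = 3). In Ppargc1b and Esrra the exercised groups MHE and PHE lie below MHS and PHS with no overlap within either arm, while in Ppargc1a all groups overlap.

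Pprc1 (ENSMUSG00000055491.13, chromosome 19, 46044886 to 46072915, plus strand) encodes the third coactivator of the family, PRC, which is known for its response to growth signals. It held 980.2, 895 and 1214 normalized counts in MHE libraries, 865, 939 and 1153 in MHS libraries, and 904, 1044 and 1006 in PHE libraries, against 796, 836 and 808 in NCS libraries. All 3 groups lay above the narrow range of the controls with no overlap. PHS libraries, with 708, 681 and 1149.8, lay on both sides of the controls. The log2 difference from NCS was 0.33 ± 0.18 in MHE, 0.27 ± 0.18 in PHE and 0.27 ± 0.18 in MHS (SE; limma adjusted p = 0.593, 0.481 and 1.00). It was 0.20 in MHE without MHE replicate 3. In MHS it was 0.15 without MHS replicate 3 and 0.11 without the 4 libraries with most liver transcripts. Higher values with no overlap were found in 1 of the 9 genes for MHE against NCS (5.54% of all genes), in 2 for PHE against NCS (11.7%) and in 1 for MHS against NCS (4.44%). As these 3 comparisons share the same controls, they are not independent. Pprc1 shares exon sequence with Ldb1 on the opposite strand.

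The share of each coactivator in its family can be given per group. Pprc1 made up 61.4% ± 9.66 of the summed coactivator level per kilobase in MHE, against 51.9% ± 2.31 in MHS muscle, and 58.6% ± 4.69 in PHE, against 48.8% ± 14.1 in PHS muscle (SD, n = 3 each). It was 49.3% ± 7.53 in NCS. Ppargc1b made up 11.6% ± 3.89 in MHE, 14.7% ± 2.84 in MHS, 11.9% ± 1.97 in PHE, 16.2% ± 2.86 in PHS and 18.2% ± 2.95 in NCS muscle. Ppargc1a made up 26.9% ± 9.87 in MHE, 33.4% ± 2.72 in MHS, 29.5% ± 6.40 in PHE, 35.1% ± 12.1 in PHS and 32.6% ± 6.39 in NCS muscle. The shares were not tested. In PHS muscle that of Pprc1 ranged from 39.1% to 65.0% and that of Ppargc1a from 21.1% to 42.6%.

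Esrrb (ENSMUSG00000021255.17, chromosome 12, 86361117 to 86521628, plus strand) and Esrrg (ENSMUSG00000026610.13, chromosome 1, 187608791 to 188214885, plus strand) encode the other two oestrogen-related receptors. ERR gamma in particular is known for high activity in slow, oxidative muscle. Esrrb held 117, 300.4 and 231 normalized counts in PHE libraries, against 401, 271 and 279.6 in PHS libraries. Esrrg held 285, 446 and 343 in PHE libraries, against 649, 459 and 302 in PHS libraries. Both genes overlapped between the groups, with the lowest library of all 15 in PHE replicate 1 and the highest in PHS replicate 1. The log2 difference was -0.63 ± 0.34 for Esrrb and -0.35 ± 0.26 for Esrrg (limma adjusted p = 0.991 for both). Elsewhere Esrrb averaged 279 ± 73.5 in MHE, 292 ± 49.8 in MHS and 247 ± 106 in NCS muscle, and Esrrg 378 ± 91.1 in MHE, 386 ± 43.4 in MHS and 378 ± 88.7 in NCS muscle.

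In PHE against PHS muscle, slow fibre genes had lower means along with these receptors. The 10 slow fibre genes, such as Myh7, Tnni1 and Atp2a2, were all lower on average in PHE than in PHS muscle, with a median log2 difference of -1.05. Their summed level was 728 to 3733 CPM in PHE against 3252 to 5904 CPM in PHS libraries, with none at 0. Their mean log2 level was 10.4 in PHE replicate 1 and 12.5 in PHE replicates 2 and 3. In PHS replicates 1, 2 and 3 it was 13.1, 12.9 and 12.3. PHE replicates 2 and 3 thus lay within the PHS range, and the size of the difference rested largely on PHE replicate 1. PHE replicate 1, the library lowest in Esrrb and Esrrg, was also the lowest of all in slow fibre genes. Without that library the Esrrb difference between PHE and PHS was -0.24, and the Esrrg difference ran from -0.63 without PHS replicate 3 to -0.081 without PHS replicate 1. With the slow fibre level as a covariate, the differences were -0.17 for Esrrb and -0.013 for Esrrg. Over the 15 libraries the slow fibre level correlated with Esrrg at r = 0.73 and Spearman rho = 0.75 (permutation p = 0.00192 and 0.00181, adjusted 0.0216 and 0.0271 over 45 relations). It was r = 0.75 without the 2 libraries farthest from the median of Esrrg and r = 0.73 for deviations from the group means. Esrrb correlated with it at r = 0.82 (adjusted permutation p = 0.0132), rho = 0.44 (adjusted 0.287), but at r = 0.31 without PHE replicate 1 and NCS replicate 1, so that relation rests on these 2 libraries. Ppargc1a did not follow the slow fibre level here (r = 0.17, rho = 0.24, adjusted permutation p = 0.754 and 0.629).

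Nrf1 (ENSMUSG00000058440.14, chromosome 6, 30047988 to 30153458, plus strand), Gabpa (ENSMUSG00000008976.16, chromosome 16, 84834925 to 84863779, plus strand) and Tfam (ENSMUSG00000003923.14, chromosome 10, 71225464 to 71238280, minus strand) form the next step of the pathway. NRF1 and GABP bind promoters of respiratory chain genes and of Tfam. Nrf1 stayed within 258 to 339 normalized counts in all libraries, and all its groups overlapped. Its largest difference from NCS was in MHE, with 315 ± 20.8 in MHE against 289 ± 18.4 in NCS muscle and a log2 difference of 0.12 ± 0.13 (SE), and 0.070 without MHE replicate 1.

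Gabpa held 644, 742 and 730.4 normalized counts in PHE libraries, against 583, 458 and 633 in NCS libraries, which did not overlap. The log2 difference was 0.35 ± 0.19 (limma adjusted p = 0.404), and 0.21 without NCS replicate 2. Gabpa held 763, 590.2 and 587 in MHE libraries, against 620.4, 577 and 428 in MHS libraries, a log2 difference of 0.26 ± 0.19 with overlap, 0.10 without MHS replicate 3 and 0.049 without the 4 libraries with most liver transcripts. PHS libraries held 773, 679 and 493. Tfam held 775, 737 and 744 in PHE libraries, against 752, 491 and 720.04 in NCS libraries, a log2 difference of 0.23 ± 0.17 that was 0.031 without NCS replicate 2. In the remaining groups Tfam held 748, 653 and 572 in MHE, 653, 639.9 and 551 in MHS, and 805, 759 and 579 in PHS libraries. So the highest group means of both genes were those of PHE, with 705 ± 53.8 for Gabpa and 752 ± 20.3 for Tfam, and the lowest those of MHS, with 542 ± 101 and 615 ± 55.4. Gabpa shares exon sequence with Atp5j on the opposite strand.

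**Figure D3:**
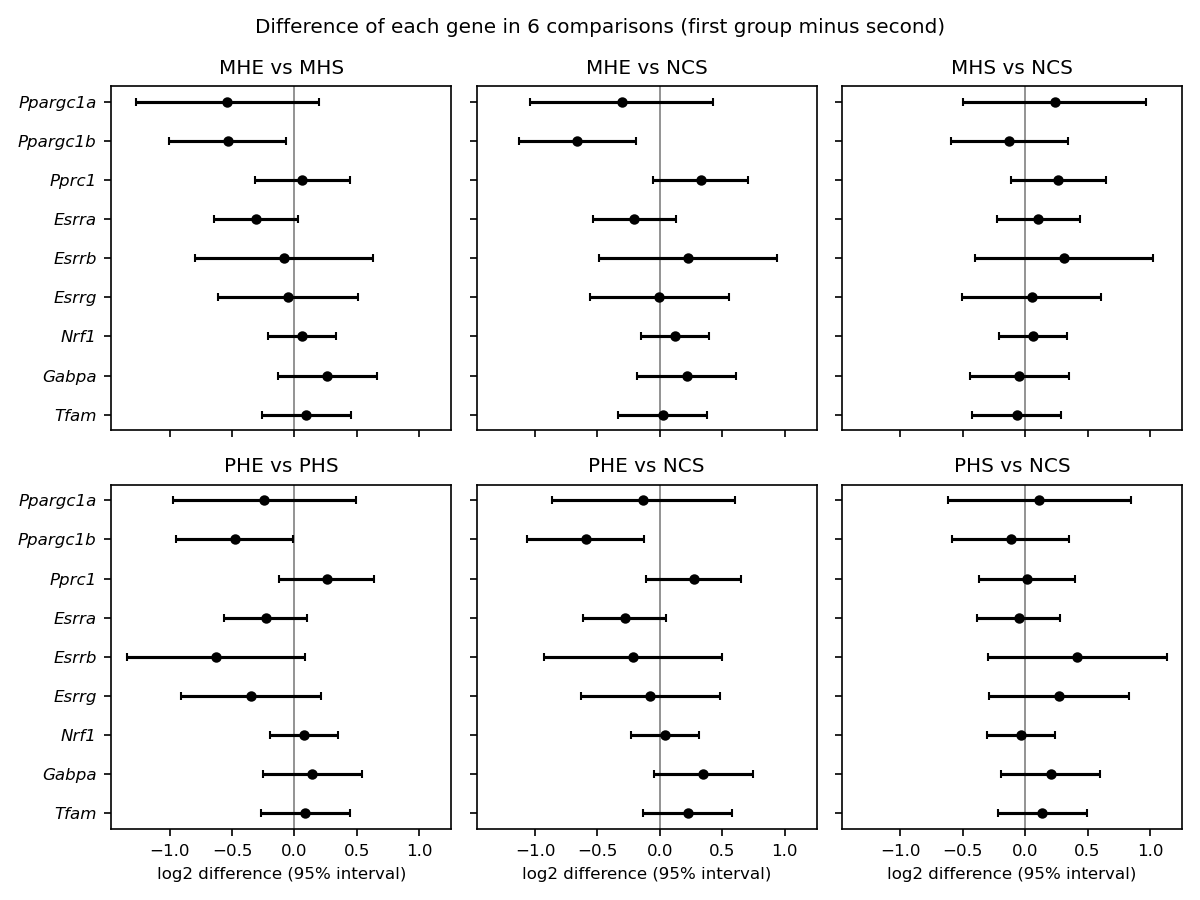
Log2 difference of each gene (points) with its 95% interval (bars) from the limma fit in the 6 comparisons, first group minus second. The interval of Ppargc1b lies below 0 in the 4 comparisons of an exercised group, and no difference passes 0.05 after adjustment over 13499 genes.

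Gabpa and Tfam had the highest Pearson correlation of the 36 pairs. Over the 15 libraries r was 0.87 and Spearman rho 0.79 (permutation p = 4e-05 and 7.5e-04, adjusted 0.0018 and 0.0169 over 45 relations, of which 36 are pairs of the 9 genes). It was r = 0.77 without MHS replicate 3 and NCS replicate 2, the libraries lowest in Gabpa and lowest in detected genes, and r = 0.86 for deviations from the group means. Libraries share a depth and a scaling, which a correlation between genes also reads. Both genes hold the core of the GABP site in the RefSeq promoter windows, CCGGAAG, and the 30 bases around it are shown for comparison, with the match in capitals.
Gabpa chr16:84835019-84835048, plus strand: ggagggtaagtgCTTCCGGgtccctcagct
Tfam chr10:71238074-71238103, minus strand: tcctgccgcggaCCGGAAGtccgggcttcc
The site lies 93 to 87 bases before the RefSeq start of Gabpa, where it reads CTTCCGG because it is on the opposite strand. It lies 47 to 41 bases before the RefSeq start of Tfam. Both stretches fall inside the GENCODE spans given above, whose outermost starts are further upstream. Of all 32851 windows, 6.91% hold it on either strand. It was in no window of the other members searched, while the ERR element AAGGTCA (4.08% of all windows), the full NRF1 palindrome (0.782%) and the full cAMP response element TGACGTCA (1.55%) were in none of the 13 windows of 8 members. A shorter NRF1 core, TGCGCA (6.43%), was found in Esrra alone, from -31 to -26. The MEF2 site (2.92% of all windows) was found from -22 to -13 in a window of Esrrg and from -95 to -86 in one of Nrf1. A match of letters is not a binding site, and no match says only that these letters are not in the window.

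Of the other pairs, Esrrb and Esrrg correlated at r = 0.76 and rho = 0.81 (adjusted permutation p = 0.0132 and 0.0169), and at 0.71 without PHE replicate 1 and NCS replicate 1. Pprc1 and Nrf1 correlated at r = 0.71 and rho = 0.66 (adjusted permutation p = 0.031 and 0.101), and at 0.73 without 2 libraries. Esrra correlated inversely with Gabpa (r = -0.67, rho = -0.61, adjusted permutation p = 0.0485 and 0.138) and Tfam (r = -0.66, rho = -0.46, adjusted 0.0485 and 0.287). Both inverse relations rested on NCS replicate 2 and MHS replicate 3, without which r was -0.36 and -0.31. Ppargc1a correlated with Esrra at r = 0.51, Esrrg at r = 0.59 and Tfam at r = 0.08 (adjusted permutation p = 0.176, 0.109 and 0.885). In all, 7 of the 45 relations had an adjusted p under 0.05 for r, and 19 of the 36 pairs were positive. The 9 genes thus did not vary as 1 block over these muscles.

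**Figure D4:**
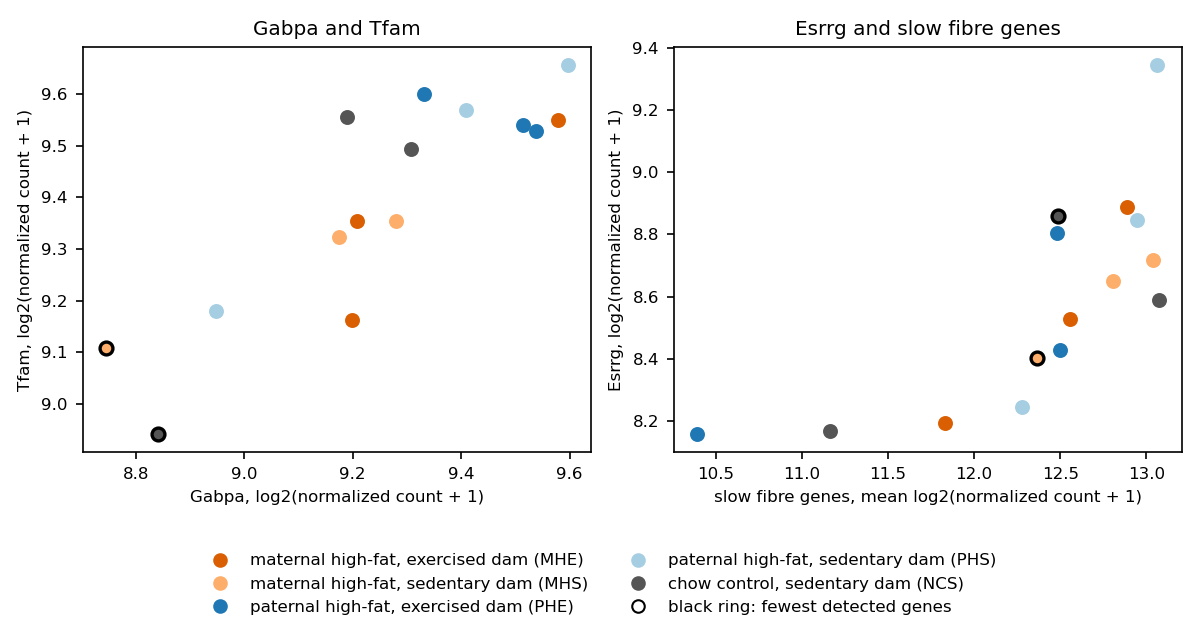
Left, Tfam against Gabpa, and right, Esrrg against the mean of 10 slow fibre genes, all as log2 of the normalized count plus 1, with 1 point per library coloured by group. Black rings mark MHS replicate 3 and NCS replicate 2, the 2 libraries with fewest detected genes, which are the lowest in Gabpa.

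Among 10380 other genes with a mean of at least 50, those whose log2 level followed Ppargc1a most closely over the 15 libraries by Pearson correlation were Ccdc85a (r = 0.88), Dok4 (0.85), Car2 (0.82), Prdm15 (0.76) and Lama4 (0.76). By Spearman rho the order differed, with Car2 (0.85) and Lama4 (0.81) at ranks 1 and 2. Dok4 (0.75), Prdm15 (0.75) and Ccdc85a (0.74) stood at ranks 17, 18 and 20. Car2 is a cytosolic carbonic anhydrase, Lama4 a laminin chain of vessel and muscle basement membranes, and Dok4 a docking protein of tyrosine kinases. Ccdc85a, for instance, spanned 163 to 267 normalized counts. The most opposed were Cacna1c, which encodes a voltage-gated calcium channel (r = -0.87), C87436 (-0.85) and the ceramidase gene Acer2 (-0.84). Nearest to Esrra were 3 genes of oxidative phosphorylation, Uqcrc1 of complex III (r = 0.95), Ndufs8 of complex I (0.93) and Atp5a1 of the ATP synthase (0.92). NCS replicate 2 and MHS replicate 3, the libraries highest in Esrra, were also those with fewest detected genes, and r without them was not computed here. The r values for Ppargc1a and Esrra order genes by likeness and are not tests, as the highest of so many values is high by choice.

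The wider pathway was described by 5 lists. For muscle genes known as targets of PGC-1, ERR, NRF1 or GABP, 23 of 28 had a lower mean in MHE than in MHS muscle (median log2 -0.10). In PHE against PHS muscle 23 of 28 had a lower mean too (median -0.09). Over the 30 alternatives the medians ran from -0.147 to -0.069 and from -0.145 to -0.061. Many of these alternatives, such as fits without a library of another group, leave the differences unchanged. Over all 13499 genes the medians were 0.00 and 0.01, with 6702 and 6509 lower. None of the 28 passed in either arm, with 2 in each at an unadjusted limma p under 0.05. Vegfa, the angiogenic growth factor that PGC-1 can induce, held 3656, 3917 and 2767 normalized counts in MHE libraries, against 3587, 4717 and 5057 in MHS libraries. It held 2299.7, 2791 and 3259 in PHE libraries, against 4917, 4002 and 3369 in PHS libraries, where values did not overlap (log2 difference -0.55, limma adjusted p = 0.991). Cpt1b, the muscle enzyme that admits fatty acids to mitochondria, was picked out after its values were seen: its log2 difference was -0.35 ± 0.16 in MHE against MHS and -0.41 ± 0.16 in PHE against PHS. Pdk4, which spares glucose by blocking pyruvate dehydrogenase, lay on the other side in MHE against MHS, with 97595, 75395 and 129235 against 75412, 84613 and 71568 (log2 difference 0.35). Against NCS, 20 of 28 targets had a lower mean in MHE (median -0.08), 22 of 28 in PHE (-0.09), 12 of 28 in MHS (0.02) and 12 of 28 in PHS (0.04), and the medians in MHS and PHS were both -0.022 without NCS replicate 3. Without MHS replicate 1 the median in MHS was -0.015.

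The list of corepressors and modifying enzymes of PGC-1 also held coactivators, such as Ncoa1 and Lpin1, so its counts do not stand for repression or activation. Of its genes, 12 of 18 had a higher mean in MHE than in MHS (median 0.02) and 14 of 18 in PHE than in PHS muscle (0.06), with none passing. Sirt1, the deacetylase that acts on PGC-1 alpha, held 216, 154 and 208 normalized counts in MHE libraries, against 157, 141 and 72.4 in MHS libraries (log2 difference 0.70, limma adjusted p = 0.516), with overlap between MHE replicate 2 and MHS replicate 1. Perm1, a muscle regulator induced by PGC-1 and ERR, held 3910.3, 3685 and 3937 in PHE libraries, against 5618, 5617 and 4138 in PHS libraries, which did not overlap (log2 difference -0.40). In PHE against NCS the largest differences of this list were those of Nrip1, a corepressor of oxidative genes, and Lpin1, a phosphatidate phosphatase and coactivator. Lpin1 held 19569, 23493 and 18463 in PHE libraries, against 13663, 12869 and 13688 in NCS libraries (log2 difference 0.61, limma adjusted p = 0.284). Nrip1 held 925, 1109.5 and 677 in PHE libraries, against 632, 532 and 489 in NCS libraries (log2 difference 0.69, limma adjusted p = 0.285).

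Among partner receptors and factors, 7 of 19 had a higher mean in MHE than in MHS (median -0.07, and above 0 without MHS replicate 3) and 15 of 19 in PHE than in PHS (0.13). Gabpb1, the partner subunit of GABPA, held 139, 114 and 117 normalized counts in MHE libraries, against 79.2, 103 and 54.0 in MHS libraries, with no overlap (log2 difference 0.69, limma adjusted p = 0.516). Pparg held 70.8, 90.5 and 100.5 in MHS libraries, against 39.6, 46.5 and 59.6 in NCS libraries, also with no overlap (log2 difference 0.84, limma adjusted p = 1.00). Nr4a3, an orphan receptor induced by contraction, ranged from 74.9 to 482 in PHE and from 67.7 to 122 in PHS libraries, so its log2 difference of 1.36 rested on PHE replicates 2 and 3. Among genes upstream of Ppargc1a, 11 of 22 had a higher mean in MHE than in MHS (median -0.01) and 15 of 22 in PHE than in PHS (0.09). Genes for mitochondrial DNA transcription and replication had a higher mean in 10 of 16 in MHE against MHS (median 0.19, but -0.0043 without the 4 libraries with most liver transcripts) and in 11 of 16 in PHE against PHS (0.05). Ssbp1, the single-strand binding protein of mitochondrial DNA, held 272, 239 and 278 in MHE libraries, against 200.3, 230.3 and 171 in MHS libraries, with no overlap (log2 difference 0.40). Of the 10 fast fibre genes, 9 had a lower mean in MHE than in MHS (median -0.12) and 4 in PHE than in PHS (0.04, with 4 alternatives below 0). Of the 10 slow fibre genes, 8 had a lower mean in MHE than in MHS (median -0.33, above 0 without MHE replicate 3). No gene of any of these lists passed an adjusted p of 0.05 by limma.

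**Figure D5:**
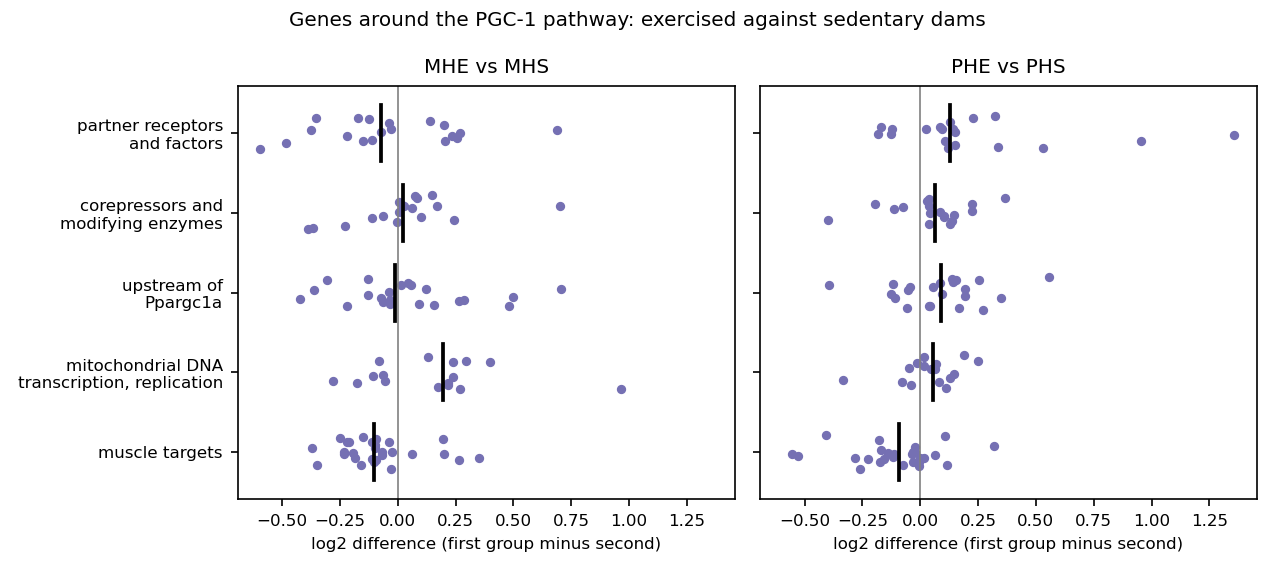
Log2 difference of each gene (points) and the list median (bars) for 5 lists around the PGC-1 pathway, in MHE against MHS and in PHE against PHS. The muscle targets lie mostly left of 0 in both panels (23 of 28 in each), with medians of -0.10 and -0.09.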

How the data were processed

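Total RNA of quadriceps was depleted of ribosomal RNA, made into stranded libraries and sequenced as 100 bp single-end reads, per the labels' protocols. The submitters' processing notes name STAR 2.5.2b, featureCounts 1.5.2, DESeq2 1.11.8 and build mm10. The authors deposited 1 table of signal values, read counts per gene divided by a size factor per sample, as deduced from the values: each is a whole multiple of its column's step (tolerance 0.001 of a read, 100% of values). The step of NCS replicate 2 is 1.01, near enough to 1 that recovery there rests on the digits after the point. Recovered reads served only as depth, CPM and in the edgeR, DESeq2 and voom alternatives.

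Of 50686 identifiers, 50376 (99.4%) matched GENCODE M21 (GRCm38), which gave symbols, coordinates and exon lengths. Samples were grouped by the group label. Normalized counts, with a pseudocount of 1, were put on the log2 scale, and the 13499 genes whose mean reached 10 entered a moderated linear model with a mean-variance trend (limma 3.58.1, R 4.3.3) over all 15 samples in 1 fit, adjusted by Benjamini-Hochberg over all of them (threshold 0.05). That scale understates the change of low genes. edgeR 4.0.16 and DESeq2 1.42.0 were alternatives, beside other pseudocounts, filters and scalings, fits without each library, and covariates. The code was tested on simulated data. Correlations used 100000 permutations. Motifs searched on both strands, overlaps allowed, were those named in the text and, beside them, the E-box (CACGTG), the CCAAT box, the TATA box (TATAAA) and the GC box (GGGCGG). The 9 members, 7 pathway lists and 8 marker lists were chosen with earlier results of these data known. All members are named, and of each list the 2 genes with the largest difference per comparison could be, some of which are given. The pooled comparison and the counts of values that do not overlap were added after the values were seen.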

Additional observations from a re-analysis of the deposited data

How the results depend on the processing

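Of 54 differences (9 genes in 6 comparisons), 24 kept their sign in every alternative that could be fitted and 30 turned in at least 1. Fits without a library of a group not compared leave the difference unchanged, so they could not turn a sign. None of the 9 genes passed in any alternative. The exercise differences of Ppargc1a, Ppargc1b and Esrra kept their sign in both arms but not their size. With the title code as covariate, Ppargc1a in MHE against MHS was -1.03 and Esrra in PHE against PHS -0.048. All MHS libraries share 1 code, held among MHE libraries by replicate 3 alone. Only PHE replicate 2 shares a code with PHS libraries. So that fit sets 1 exercised library against sedentary ones in each arm and does not compare the whole groups. The genes that limma called with this covariate, counted below, rest on the same 1 exercised library per arm. Those counts are therefore no comparison of the whole groups either. Ppargc1a in PHE against PHS was -0.013 without PHE replicate 3. Over all genes limma called 0 in each comparison. DESeq2 called 60 genes for MHE against MHS, 1 for PHE against PHS, 65 for PHE against NCS, 18 for MHS against NCS, 32 for the pooled comparison and 186 for any difference among the 5 groups. With the opening code of the sample titles as covariate, limma called 16, 11, 181 and 1 genes for MHE against MHS, PHE against PHS, the pooled comparison and the difference between arms, and MHE and MHS against NCS could not be fitted. Leaving out each library in turn gave 0 to 109 genes for MHE against MHS (109 without MHS replicate 1) and 0 to 1 for PHE against PHS, PHE against NCS, MHS against NCS and the pooled comparison. The cause was not tested.

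Differences that turned sign were mostly against NCS, as were most of those compared, and the cause was not tested. In MHE against MHS the differences of Esrrb, Esrrg, Nrf1, Pprc1 and Tfam turned. In PHE against PHS those of Gabpa, Nrf1 and Tfam turned. The differences against NCS that turned are given next for Ppargc1a, Ppargc1b and Esrra. For Ppargc1a they were MHS (-0.20 with the liver covariate), PHS (-0.13 with the title code) and PHE (0.088 without the 4 libraries with most liver transcripts or the 2 with fewest genes). Without each library in turn these ranged from -0.056 to 0.45, -0.18 to 0.43 and -0.42 to 0.10. For Ppargc1b they were MHS (0.15 without the 4 libraries, 0.19 without the 2) and PHS (0.13 without the 2, 0.16 with the title code), with -0.26 to 0.12 and -0.29 to 0.13 without each library. Its difference between arms was 0.21 with the liver covariate and -0.24 to 0.048 without each library. For Esrra they were PHS (0.17 without the 4, 0.14 without the 2), with -0.27 to 0.14 without each library, and MHS with -0.11 to 0.29. No paired analysis was possible because replicate numbers follow accession order and pair nothing. A group left with 1 library was assumed to vary like the others. With 92 to 266 reads, Ppargc1b is the gene whose values depth limits most.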
